A study of Mus musculus with 44 samples.

Results

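CH12.LX cells treated with TCDD were compared between 48 h and 24 h after treatment, on 4 arrays per time, which are 8 of the 44 arrays of a longer time course. CH12.LX, derived from a murine B-cell lymphoma, begins to secrete antibody when given lipopolysaccharide (LPS), a bacterial cell wall component. The cells were plated at 100000 per ml, given LPS of Salmonella typhosa at time 0, and then given either 10 nM TCDD, a dioxin, or its solvent dimethyl sulfoxide at 0.01%, here called vehicle. Arrays were chosen by the treatment and time in their titles and paired by the replicate number, because the cells of each of the 4 replicates were handled on a day of their own. The 4 vehicle arrays at 24 h, the 4 at 48 h and the 4 TCDD arrays at 36 h serve as comparison. Every group after 0 h received LPS, so no group had TCDD alone. All groups are cultures of 1 cell line, and differences in level between days are taken out in the fit. The p-values therefore rest on how unevenly the groups moved from day to day, with that spread pooled over all 44 arrays. RNA was measured on Affymetrix whole-genome mouse arrays, and each level below is log2(signal + 16) of a gene's brightest probe set after quantile normalization. The added 16 shrinks the changes of dim genes.

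TCDD binds the aryl hydrocarbon receptor (AhR), a transcription factor that pairs with Arnt and switches on genes of xenobiotic metabolism such as Cyp1a1, together with its own repressors. In B cells LPS starts a programme that ends in the antibody-secreting plasma cell, which the factors Prdm1 and Xbp1 drive and which Pax5, Bach2 and Bcl6 oppose. A separate programme, the integrated stress response, is run by the factors Atf4 and Ddit3 and raises genes that make, import and charge amino acids. Type I interferon acts through Stat and Irf factors on a large set of antiviral genes.

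Of 7 B cell markers 6 were measured. All 6 were above the level that a gene had to pass to be tested at 48 h, and all but Pax5 at 24 h. The summed signal of the 6 was 13220 to 16460 at 24 h and 15990 to 17120 at 48 h. The 6 plasma cell markers summed to 37720 to 39360 at 24 h and 43000 to 44140 at 48 h, with Sdc1, which defines the mature plasma cell, below that level. Of the 6 macrophage markers Cd68, Adgre1, Csf1r and Cd14 were above that level while Itgam and Lyz2 were not, and their sum was 2498 to 2882 at 24 h and 2411 to 2829 at 48 h. No neutrophil or erythroid marker was above it. Of the T cell markers Cd8a was above it at both times, Cd3e at 24 h and Cd3g at 48 h. The NK cell markers Nkg7 and Prf1 and the fibroblast markers Col1a2 and Pdgfrb were above it at both times. The T cell markers summed to 508.5 to 657.3 and then 655.7 to 879.0, and the NK cell markers to 363.2 to 424.5 and then 519.8 to 582.1. Fibroblast markers summed to 329.6 to 429.0 and then 218.9 to 307.5. The part of other cells in any result was not tested. The median deposited signal was 48.4 to 67.5 at 24 h and 50.9 to 76.1 at 48 h. The log2 ratio of 3′ to 5′ beta-actin signal, a sign of RNA integrity, was 0.323 to 0.435 at 24 h and 0.383 to 0.582 at 48 h, higher at 48 h in 4 of 4 pairs (exact sign permutation test, two-sided, p = 0.125, the smallest that 4 pairs allow). Its part in the results was not tested.

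Between 24 and 48 h the largest rise in TCDD cells was that of Nupr1, of the integrated stress response, at 6.14-fold, and its list mates Ddit3 and Cth were among the 12 largest rises. The largest fall was that of the Schlafen gene Slfn1 at 4.57-fold, and the interferon-stimulated genes Ifit3, Mx1 and Slfn5 were among the 12 largest falls. Of 11955 genes tested, 3443 changed, which is 28.8% (limma, Benjamini-Hochberg adjusted p under 0.05). Of these 1945 rose (16.3%) and 1498 fell (12.5%), and the median change of all genes was 0.03 on the log2 scale. Most changes were small: 215 of the 3443 reached 2-fold, 139 of them upwards and 76 downwards. For 3310 of the 3443 called genes the direction was shared by all 4 same-day pairs. The calls rest on these same pairs, so this is no separate evidence, and the share among all genes was not counted. Without the replicate number as a block, so that the pairing by day is dropped, 2431 genes were called. With the medians of the arrays aligned in place of quantile normalization, 1770 were called, of which 975 rose.

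In vehicle cells over the same hours 5232 genes changed (43.8%), 2947 upwards (24.7%) and 2285 downwards (19.1%). Of the genes that changed in TCDD cells, 2815 also changed in vehicle cells, and 33 of those ran in opposite directions. The change itself differed between TCDD and vehicle cells for 800 genes (6.69% of those tested; limma, interaction term). This difference, TCDD change minus vehicle change, was above 0 for 358 genes (2.99%) and below 0 for 442 (3.7%). Of the 800, 375 were called in vehicle cells only, 61 in TCDD cells only, 360 in both and 4 in neither. Among the 327 called in both and moving one way, the change was the smaller one in TCDD cells for 325. The count of 800 rested on the handling of the replicates: it was 266 without the block, 312 without replicate 1, 314 without replicate 2, 429 without replicate 3 and 466 without replicate 4. With array medians aligned it was 93, of which 20 were above 0, and with only these arrays in the fit 438, of which 132 were above 0. Without 4 arrays that stood apart it was 1075, of which 530 were above 0. Vehicle 48 h replicate 2 is among those arrays and enters this difference. Its log2 ratio of 3′ to 5′ beta-actin signal was 0.761, against 0.379 to 0.551 on the other vehicle arrays of 48 h. The part of RNA integrity in the difference was not tested. In the plot of changes in TCDD cells against changes in vehicle cells, 31 of 36 interferon genes lie left of 0. They range from -2.02 to 0.41 in TCDD cells, among other genes.

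**Figure D1:**
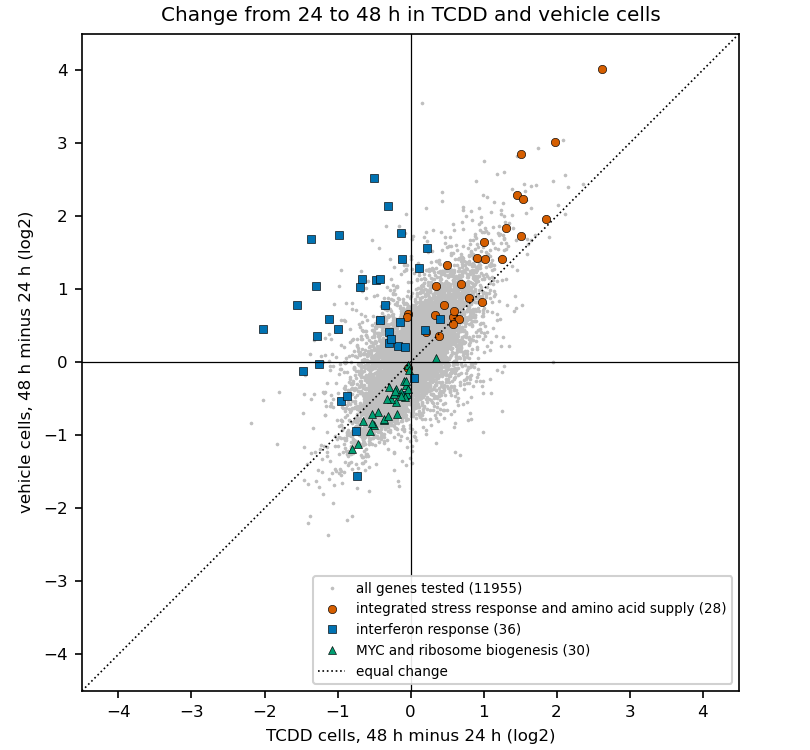
Change from 24 to 48 h of each of 11955 genes in TCDD cells (horizontal axis, log2) and in vehicle cells (vertical axis, log2), with the members of 3 gene lists coloured and the line of equal change dotted. Integrated stress response genes lie in the upper right, ribosome biogenesis genes in the lower left, and most interferon genes at or left of 0 on the horizontal axis and above 0 on the vertical one.

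Genes of the integrated stress response and amino acid supply rose together. Of 28 tested members 22 rose and none fell (the background rates were 16.3% and 12.5%), with a median change of 0.75 against 0.03 for all genes. The list's mean level was 10.67, 10.28, 10.52 and 10.25 on the 24 h arrays of replicates 1 to 4, and 11.18, 11.28, 11.40 and 11.43 on the 48 h arrays, so the groups did not overlap. It had been 9.61 ± 0.05 (SD, n = 4) in TCDD cells at 8 h and 9.88 ± 0.11 in untreated cells. In vehicle cells 26 members rose and none fell (background 24.7% and 19.1%), with a median of 1.06. The difference between TCDD and vehicle cells passed the test for Ddit3 and Fgf21 and for no other member, and was below 0 for both (background 3.7%). With array medians aligned, and without the block that pairs the days, it passed for no member (adjusted p = 0.12 and 0.062 for Ddit3, 0.081 and 0.066 for Fgf21). The members that did not pass the test in TCDD cells were the asparagine synthetase Asns (-0.03), Atf3 (0.49), Cbs (-0.04), Ppp1r15a (-0.05), Sesn2 (0.34) and Slc7a1 (0.21).

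Some of these genes carry, in the bases before their start, the 8 letters TTGCATCA, the core of the amino acid response element that Atf4 and its partners are known to bind. The letters were sought on both strands of the 250 bases before each gene's start in RefSeq promoters of GRCm38.p6. They occur in 0.791% of 32851 promoters, and in 5 of the 25 tested list members that have a promoter in the table: Nupr1, Fgf21, Chac1, Slc7a11 and Atf3. In the whole list 22 of 28 tested members rose (background 16.3%), and among these 5 the first 4 rose. Their surroundings are shown because these 4 are among the strongest rises of the list, with each match in capitals. Nupr1 lies at chr7:126625548-126625605 on the minus strand, Fgf21 at chr7:45615597-45615654 on the minus strand, Chac1 at chr2:119351024-119351081 on the plus strand and Slc7a11 at chr3:50443628-50443685 on the minus strand. A match is a description of letters and does not show binding.
Nupr1: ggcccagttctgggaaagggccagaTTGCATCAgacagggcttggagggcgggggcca
Fgf21: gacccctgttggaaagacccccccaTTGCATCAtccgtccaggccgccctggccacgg
Chac1: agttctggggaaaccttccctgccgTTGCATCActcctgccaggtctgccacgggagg
Slc7a11: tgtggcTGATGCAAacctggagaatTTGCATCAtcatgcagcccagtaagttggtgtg

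Nupr1 encodes a small stress-induced chromatin protein. Its level was 10.54, 8.51, 9.07 and 7.80 in replicates 1 to 4 at 24 h and 11.60, 11.54, 11.69 and 11.55 at 48 h. The 24 h arrays were widely spread with replicate 1 highest, the 48 h arrays lay close together, and the groups did not overlap. The rise was 2.62 ± 0.41 (limma SE, n = 4 per group), or 6.14-fold, with adjusted p = 7.6e-06. In vehicle cells the rise was 4.01 ± 0.41, and the difference of -1.39 did not pass the test (adjusted p = 0.15).

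Ddit3, the death-linked transcription factor also called CHOP, was at 9.93, 8.96, 9.22 and 8.89 at 24 h and at 10.88, 11.08, 11.59 and 11.35 at 48 h. Every 48 h array was above every 24 h array. It rose by 1.97 ± 0.21 (3.93-fold, adjusted p = 1.7e-08) in TCDD cells and by 3.02 ± 0.21 in vehicle cells. The difference of -1.05 ± 0.30 passed the test (adjusted p = 0.028), but not without replicate 1, 2 or 4 (adjusted p = 0.11, 0.27 and 0.079), nor without the 24 h or the 48 h TCDD array of replicate 1 (0.089 and 0.081).

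Cth, cystathionine gamma-lyase, makes cysteine from cystathionine. It was at 13.19, 11.91, 12.24 and 11.73 at 24 h and at 14.08, 13.96, 14.15 and 14.30 at 48 h, again with replicate 1 highest at 24 h and with no overlap. The rise was 1.86 ± 0.22 (3.62-fold, adjusted p = 8.2e-08), beside 1.97 ± 0.22 in vehicle cells. Pck2, the mitochondrial enzyme that makes phosphoenolpyruvate, rose by 1.54 ± 0.19 (adjusted p = 1.5e-07), and by 2.23 in vehicle cells. Replicate 1 also had the highest 24 h level of Nupr1, Ddit3 and Cth among the vehicle arrays, at 10.25, 9.51 and 12.97.

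Of the genes printed above for their promoter letters, and so named after their values were seen, Fgf21 encodes a hormone that stressed cells release. It was at 6.76, 6.92, 6.49 and 5.64 at 24 h and at 8.25, 8.13, 7.92 and 7.57 at 48 h, without overlap, a rise of 1.52 ± 0.25 (adjusted p = 2.3e-05). In vehicle cells it rose by 2.86, and the difference of -1.34 ± 0.36 had adjusted p = 0.019, which became 0.079, 0.17 and 0.07 without replicates 1, 2 and 4. Chac1, a glutathione-degrading enzyme, rose by 1.31 ± 0.29 (adjusted p = 0.00062), and Slc7a11, the cystine importer, by 1.51 ± 0.29 (adjusted p = 0.00015). The rise in vehicle cells was 1.84 for Chac1 and 1.73 for Slc7a11.

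**Figure D2:**
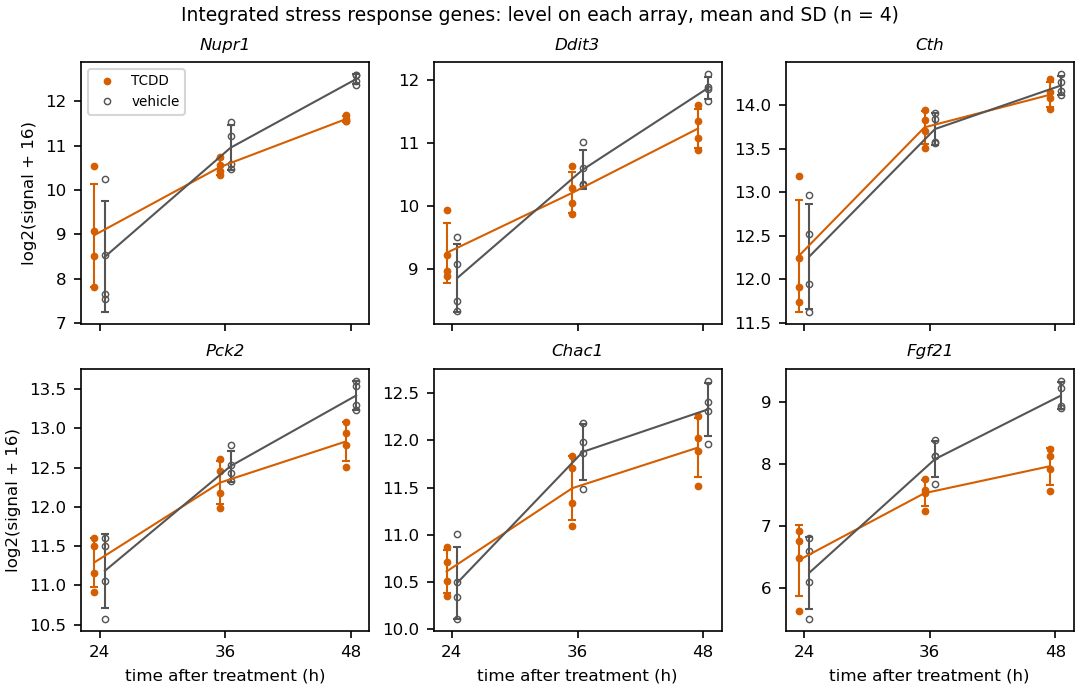
Level of 6 integrated stress response genes, log2(signal + 16), on each array of TCDD cells (filled) and vehicle cells (open) at 24, 36 and 48 h, with lines through the means and bars of 1 SD (n = 4). All 6 rose in both treatments, and at 48 h the TCDD arrays of Nupr1 and Fgf21 sat below all vehicle arrays.

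The cytosolic aminoacyl-tRNA synthetases, which load amino acids onto their tRNAs, rose as well, in 13 of 19 tested members with none falling (background 16.3% and 12.5%). Only 4 of the 19 rose with array medians aligned. Their median change was 0.33 (0.21 with medians aligned), against 0.30 in vehicle cells, where 12 rose and 1 fell (background 24.7% and 19.1%). The largest called rises were those of Sars (0.67 ± 0.08, adjusted p = 4.3e-08), Cars (0.60 ± 0.10, adjusted p = 2.3e-05), Gars (0.57 ± 0.07, adjusted p = 1.3e-07) and Lars (0.54 ± 0.09, adjusted p = 1e-05), for serine, cysteine, glycine and leucine. A dimmer probe set of Cars was at -0.06 and not called. In none of these 4 did the 24 and 48 h arrays overlap. They were picked for large called changes, and the share without overlap among all genes was not counted.

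Interferon-stimulated genes fell more often than they rose in TCDD cells and rose more often than they fell in vehicle cells. Of 36 tested members 16 fell and 2 rose in TCDD cells (background 12.5% and 16.3%), with a median change of -0.44. In vehicle cells 20 rose and 5 fell (background 24.7% and 19.1%), with a median of 0.56. Of the 16 that fell in TCDD cells 6 rose in vehicle cells, 4 fell there too and 6 were not called there, and 12 members rose in vehicle cells without a call in TCDD cells. The difference of the change was below 0 for 21 members and above 0 for none (background 3.7% and 2.99%). The list's mean level was 11.56, 11.67, 11.54 and 11.45 on the TCDD arrays of 24 h and 11.20, 11.15, 10.77 and 10.76 on those of 48 h, without overlap. It was 9.39 to 9.85 in vehicle cells at 24 h and 10.02 to 10.27 at 48 h, so the TCDD arrays stayed above the vehicle arrays while the groups came closer. The same mean was 9.04 ± 0.43 (SD, n = 4) in untreated cells and 10.34 ± 0.11 in TCDD cells at 8 h. The difference of the change was called and below 0 for 19 members without the replicate block, which drops the pairing, and for 19 with array medians aligned.

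The letters GAAA, any 2 bases and GAAA again, the core of the interferon-stimulated response element, were sought in the same way. They occur in 2.98% of promoters and in 15 of the 28 tested members with a promoter, of which 6 fell and 1, Bst2, rose. In the whole list 16 of 36 fell and 2 rose (background 12.5% and 16.3%). Shown are members that fell, with every match inside the window in capitals: Ifit3 at chr19:34583348-34583407 and Ifit1 at chr19:34640760-34640819, both on the plus strand, Slfn5 at chr11:82951922-82951981 on the plus strand and Slfn8, named after its values were seen, at chr11:83020824-83020883 on the minus strand. In all but Slfn5 the letters read on the opposite strand.
Ifit3: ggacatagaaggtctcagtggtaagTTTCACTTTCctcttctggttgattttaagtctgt
Ifit1: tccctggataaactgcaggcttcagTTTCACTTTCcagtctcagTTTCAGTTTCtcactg
Slfn5: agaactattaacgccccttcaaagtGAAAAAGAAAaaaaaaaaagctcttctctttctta
Slfn8: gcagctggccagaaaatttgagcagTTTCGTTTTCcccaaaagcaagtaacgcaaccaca

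Ifit3 and Ifit1 belong to a family of antiviral proteins that act on viral RNA. Ifit3 was at 10.57, 11.08, 10.41 and 10.15 at 24 h and at 8.99, 9.13, 7.83 and 8.19 at 48 h. The groups did not overlap, and replicates 3 and 4 were the lowest at both times. It fell by 2.02 ± 0.25 on the log2 scale (4.05-fold, adjusted p = 2.7e-07), while vehicle cells changed by 0.45 ± 0.25 (adjusted p = 0.15). The difference was -2.47 ± 0.36 (adjusted p = 4e-05).

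Ifit1 was at 10.78, 11.27, 11.16 and 10.91 at 24 h and at 9.86, 9.91, 9.41 and 9.46 at 48 h. It did not overlap between the times and fell by 1.37 ± 0.30 (adjusted p = 0.00067), while in vehicle cells it rose by 1.68 ± 0.30 (adjusted p = 2.4e-05). The difference of -3.05 ± 0.43 had adjusted p = 2.8e-05. Ifit1 thus ran in opposite directions in the 2 treatments, and at 48 h its lowest TCDD array, at 9.41, was just above its highest vehicle array, at 9.32.

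Mx1, a dynamin-like GTPase that blocks influenza virus, was at 10.51, 10.44, 10.11 and 9.98 at 24 h and at 9.38, 9.03, 8.06 and 8.34 at 48 h. The fall of 1.56 ± 0.25 (adjusted p = 1.3e-05) stood beside a rise of 0.79 ± 0.25 in vehicle cells (adjusted p = 0.011), a difference of -2.35 ± 0.36 (adjusted p = 6.7e-05). Slfn5 fell by 1.47 ± 0.34 (adjusted p = 0.0011) and Slfn8 by 1.25 ± 0.22 (adjusted p = 5.2e-05). In vehicle cells these Schlafen genes changed by -0.12 and -0.02 and neither change was called. The difference was called for Slfn8 (-1.23, adjusted p = 0.014), though not without replicate 1, 2 or 4 (adjusted p = 0.051, 0.10 and 0.088), and not for Slfn5 (-1.35, adjusted p = 0.089).

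For other members the fall was smaller than the rise in vehicle cells. These are named after their values were seen. Oasl2, a member of the oligoadenylate synthetase family, fell by 0.97 ± 0.31 (adjusted p = 0.016, and 0.081 and 0.067 without replicates 2 and 4 and 0.075 without the 48 h array of replicate 3), against a rise of 1.75 in vehicle cells. Oas3, which makes the signal that activates RNase L, changed by -0.49 ± 0.34 (adjusted p = 0.31) in TCDD cells and rose by 2.53 in vehicle cells, a difference of -3.02 ± 0.48 (adjusted p = 0.00014). Usp18, which removes a ubiquitin-like tag and damps interferon receptor signalling, changed by -0.30 ± 0.27 (adjusted p = 0.45) and rose by 2.14 in vehicle cells, a difference of -2.44 ± 0.38 (adjusted p = 0.00011).

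The 2 members that rose were Irf1, a transcription factor (0.41 ± 0.12, adjusted p = 0.0071), and Bst2, a membrane tether of virus particles (0.19 ± 0.07, adjusted p = 0.049). Neither call was firm. Irf1 had adjusted p = 0.087 without replicate 2. Bst2 was not called without replicate 2, 3 or 4 (adjusted p = 0.16, 0.10 and 0.25) or without the 24 h arrays of replicates 2, 3 and 4 or the 48 h arrays of replicates 1, 2 and 4 (0.065 to 0.21).

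**Figure D3:**
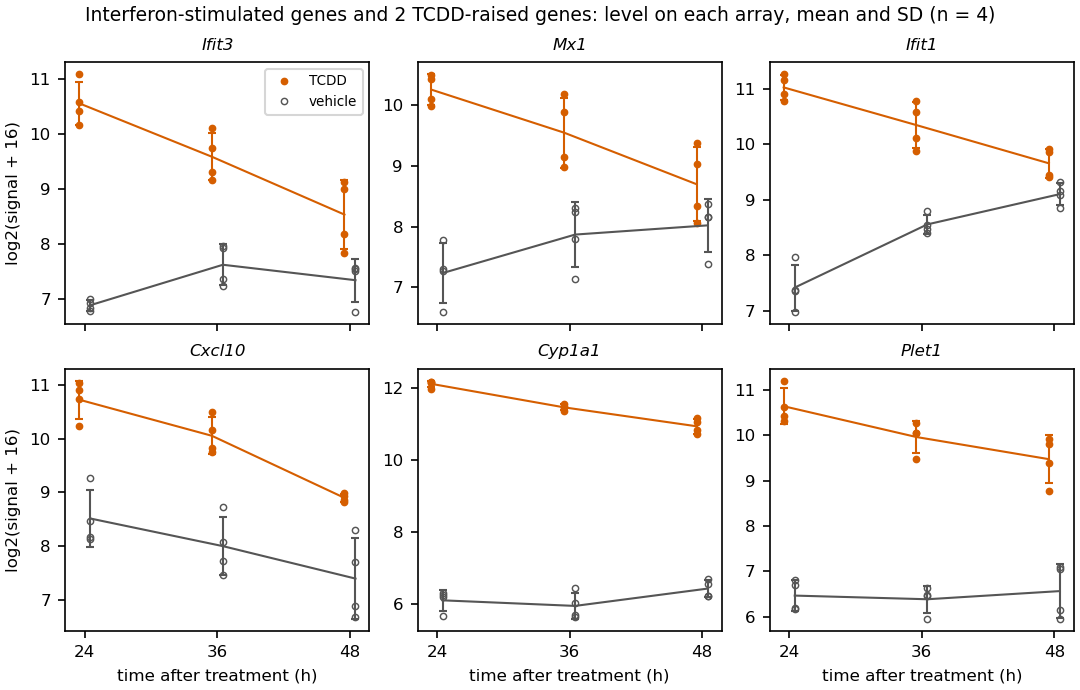
Level of 4 interferon-stimulated genes and of Cyp1a1 and Plet1, log2(signal + 16), on each array of TCDD cells (filled) and vehicle cells (open) at 24, 36 and 48 h, with lines through the means and bars of 1 SD (n = 4). All 6 fell in TCDD cells from 24 to 48 h, while Ifit1 and Mx1 rose in vehicle cells, and at 48 h the lower TCDD arrays of Mx1, at 8.06 and 8.34, lay among the vehicle arrays.

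Other large falls were of genes outside the interferon list. Cxcl10, a chemokine that interferon induces, was at 10.89, 11.04, 10.73 and 10.23 at 24 h and at 8.94, 8.86, 8.98 and 8.82 at 48 h, clear of each other. It fell by 1.82 ± 0.25 (3.54-fold, adjusted p = 9e-07), and in vehicle cells by 1.12. Cmpk2, a mitochondrial nucleotide kinase near the antiviral gene Rsad2, fell by 1.80 ± 0.31 (adjusted p = 4e-05). Stfa3, a cysteine protease inhibitor, fell by 2.02 ± 0.39 (adjusted p = 0.00013), P2ry13, an ADP receptor, by 1.47 ± 0.16 (adjusted p = 1.7e-08), and the chemokine receptor Ccr9 by 1.45 ± 0.32 (adjusted p = 0.00061). The probe set of Ccr9 is of a type that can also bind other transcripts. Phlda1, a pleckstrin-domain protein, fell by 1.46 ± 0.16 (adjusted p = 3.5e-08) and by 1.62 in vehicle cells. Ifnz, an interferon gene, fell by 1.46 ± 0.35 (adjusted p = 0.0016), and Atp13a4, an ion-transport ATPase, by 1.45 ± 0.38 (adjusted p = 0.0038). Among these the difference from vehicle was called for P2ry13 alone (-0.78, adjusted p = 0.028), and not without any 1 of the 4 replicates (adjusted p = 0.056 to 0.13), without the 24 h arrays of replicates 3 and 4 (0.052 and 0.055) or without the 48 h arrays of replicates 3 and 4 (0.083 and 0.075). It was at 0.064 without the block that pairs the days and at 0.16 with array medians aligned.

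Among the targets of AhR itself, Cyp1a1 fell. It encodes the cytochrome that TCDD is best known to induce, and its level was 12.17, 12.13, 11.98 and 12.18 at 24 h and 11.16, 11.05, 10.82 and 10.72 at 48 h. The 4 replicates were tightly grouped at each time and did not overlap. The fall was 1.18 ± 0.20 (2.26-fold, adjusted p = 2.1e-05). In vehicle cells Cyp1a1 was at 6.11 at 24 h and 6.43 at 48 h, a change of 0.33 that was not called, and the difference was -1.5 ± 0.28 (adjusted p = 0.00071). In TCDD cells the gene had been at 13.28 to 13.42 at 8 h and at 11.35 to 11.55 at 36 h, so the 48 h arrays were the lowest since treatment began and still far above the vehicle arrays.

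Of 8 tested members of the AhR pathway 2 fell and none rose (background 12.5% and 16.3%), with a median of -0.10. The other was Nqo1, a quinone reductase, at -0.39 ± 0.14 (adjusted p = 0.03). That call was lost without replicate 2, 3 or 4 (adjusted p = 0.063, 0.10 and 0.12) and without the 24 h arrays of replicates 1, 2 and 4 or the 48 h arrays of replicates 3 and 4 (0.053 to 0.085). Ahr itself changed by -0.34 ± 0.13 (adjusted p = 0.052; 0.031 without the 24 h array of replicate 3 and 0.039 without replicate 3). Cyp1b1, a second cytochrome, was at 8.14, 8.02, 8.01 and 7.70 and then at 8.90, 8.67, 8.37 and 7.38, a change of 0.37 ± 0.29 (adjusted p = 0.39) with replicate 4 moving against the other replicates. The feedback genes Ahrr and Tiparp, a repressor of AhR and an ADP-ribosylating enzyme, changed by 0.12 ± 0.17 (adjusted p = 0.68) and 0.22 ± 0.11 (adjusted p = 0.13).

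Of 9 genes that earlier work on these same arrays named as raised by TCDD, 3 fell and none rose (background 12.5% and 16.3%), with a median of -0.30. That list was chosen on these data and is no independent evidence. Slfn1, a growth-linked Schlafen gene, was at 9.65, 9.88, 9.95 and 9.58 at 24 h and at 8.07, 8.08, 6.80 and 7.35 at 48 h. It fell by 2.19 ± 0.42 (4.57-fold, adjusted p = 0.00013) with no overlap between the times. In vehicle cells it was at 5.38 and 4.54, a change of -0.83 that was not called (adjusted p = 0.11). These vehicle levels are near 4, the lowest value possible. The difference between TCDD and vehicle cells was -1.36 and not called. Plet1, a surface protein of epithelial progenitors, was at 10.31, 10.62, 10.43 and 11.21 and then at 9.82, 9.92, 8.77 and 9.39, a fall of 1.17 ± 0.22 (adjusted p = 8.1e-05) beside a change of 0.10 in vehicle cells. Its difference of -1.27 ± 0.30 (adjusted p = 0.0086) had adjusted p = 0.074 and 0.095 without replicates 2 and 4, 0.12 without the block that pairs the days and 0.055 with array medians aligned. Another probe set of Plet1 changed by -0.90 and was called, and the remaining one changed by 0.37 and was not. Csf1r, the receptor of the macrophage growth factor, fell by 0.41 ± 0.09 (adjusted p = 0.00057). Its other probe sets were at -0.34 and -0.04 and not called. The difference of its change from that in vehicle cells was 0.07 and not called. Ctla4, an inhibitory receptor, changed by -0.39 ± 0.21 (adjusted p = 0.18).

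The plasma cell programme moved unevenly. Of 13 tested members 5 rose and 1 fell (background 16.3% and 12.5%), with a median of 0.23. In vehicle cells 8 rose and 2 fell (background 24.7% and 19.1%), with a median of 0.45. The 5 rises became 1 with array medians aligned and 2 without the block that pairs the days, and 3 without the filter on dim genes or without replicate 1, 2 or 3. The member that fell was Prdm1, which encodes the plasma cell factor Blimp-1. It was at 10.68, 10.47, 10.52 and 10.88 at 24 h and at 10.31, 10.09, 10.19 and 10.41 at 48 h. Each replicate was lower at 48 h and the groups did not overlap. The fall was 0.39 ± 0.08 (1.31-fold, adjusted p = 0.00054), beside a fall of 0.50 ± 0.08 in vehicle cells.

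Xbp1, the factor of the secretory apparatus, was at 13.49, 13.45, 13.33 and 13.34 at 24 h and at 13.51, 13.47, 13.47 and 13.49 at 48 h. The change of 0.09 ± 0.06 was not called (adjusted p = 0.27) and turned to -0.033 with array medians aligned. In vehicle cells Xbp1 rose by 0.45 ± 0.06 (adjusted p = 5.3e-08). The difference of -0.36 ± 0.08 was called (adjusted p = 0.0038), though not without replicate 1 or 2 (adjusted p = 0.12 and 0.057) or with array medians aligned (0.65). Irf4, which precedes both, changed by 0.27 ± 0.11 (adjusted p = 0.057, and 0.032 without replicate 4 and 0.038 without its 48 h array), with no overlap between the times. Sdc1 was at 6.09 ± 0.33 and 5.97 ± 0.53 (SD, n = 4), a change of -0.12 that was not called and turned to 0.17 without replicate 3 and 0.13 without its 48 h array.

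Fkbp11, Ighm and Jchain were called as rises, though not in every probe set or setting. Fkbp11, a prolyl isomerase of secretory cells, rose by 0.73 ± 0.09 (adjusted p = 3.3e-07), while its dimmer probe set was at -0.24 and not called. Ighm, the IgM heavy chain, was at 11.59, 11.93, 11.14 and 11.51 and then at 12.36, 12.28, 11.79 and 12.13, higher in each replicate though the ranges overlapped. The rise was 0.60 ± 0.13 (adjusted p = 0.00041) and 0.97 in vehicle cells. Of 5 other Ighm probe sets 1 rose by 0.51 and the rest were at -0.41 to -0.08 and not called. Jchain, the joining chain of IgM pentamers, was at 9.28, 9.37, 10.01 and 10.24 and then at 9.73, 9.53, 10.63 and 11.06. It rose by 0.51 ± 0.19 (adjusted p = 0.039), and the call was lost without replicate 1, 2 or 3 (adjusted p = 0.11, 0.051 and 0.20) and without the 24 h arrays of replicates 1, 2 and 3 or the 48 h arrays of replicates 3 and 4 (0.058 to 0.18). Without the block by replicate, and so without the pairing, Ighm had adjusted p = 0.12 and Jchain 0.31.

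Of the factors that oppose the programme, Pax5 was at 6.11 ± 0.25 and 6.23 ± 0.43 (SD, n = 4), a change of 0.13 that was not called. Bach2 was at 6.59, 7.11, 7.93 and 6.85 and then at 6.12, 6.40, 6.55 and 5.64, lower in each replicate and without overlap. The change of -0.95 ± 0.39 had adjusted p = 0.066, and 0.036 without the 24 h array of replicate 1; of its other probe sets 1 fell by 1.20 and 1 was at -0.43 and not called. Bcl6 did not pass the filter on dim genes and was at 5.36 and 5.78.

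Of 20 tested B cell identity genes 5 rose and 5 fell (background 16.3% and 12.5%), with a median of 0.06. The rises numbered 1 with array medians aligned and 1 without replicate 2. Ccr7, the receptor that guides B cells to T cell zones, was at 12.32, 12.33, 12.51 and 12.38 and then at 13.10, 13.31, 13.27 and 13.08. It rose by 0.80 ± 0.09 (1.75-fold, adjusted p = 6.2e-08) without overlap. Ms4a1, which encodes the surface protein CD20, was at 11.39, 11.33, 11.28 and 11.44 and then at 10.46, 10.35, 10.77 and 10.63, a fall of 0.81 ± 0.09 (1.75-fold, adjusted p = 2.4e-08). Both moved the same way in vehicle cells, by 1.00 and -0.94. Among kinases of the B cell receptor, Btk fell by 0.43 ± 0.08 (adjusted p = 0.0001) and Syk by 0.55 ± 0.11 (adjusted p = 0.00028), with 2 other probe sets of Syk at 0.11 and 0.04 and not called. Cd79b, a signalling chain of the receptor, rose by 0.28 ± 0.07 (adjusted p = 0.0021; 0.083 without replicate 2).

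Genes of the endoplasmic reticulum (ER) also split. Of 33 tested members of the folding and unfolded protein response list 13 rose and 7 fell (background 16.3% and 12.5%), with a median of 0.03. In vehicle cells 19 rose and 3 fell (background 24.7% and 19.1%), with a median of 0.24. The difference was called and below 0 for 6 members (background 3.7%). It was below 0 for 1 member without the block that pairs the days, for 2 with only the arrays compared and for none with array medians aligned. In that last setting 5 members rose and 2 fell in TCDD cells, and with only the arrays compared 8 rose and 4 fell. Those that rose furthest were Ern1, the ER stress sensor also called IRE1 (0.84 ± 0.14, adjusted p = 2.9e-05), Ero1a, an oxidase that forms disulfide bonds (0.82 ± 0.10, adjusted p = 1.3e-07), Derl3, a channel protein of ER-associated degradation (0.71 ± 0.11, adjusted p = 7.4e-06), and Edem2, which marks misfolded glycoproteins (0.59 ± 0.08, adjusted p = 5.1e-07). The 4 other probe sets of Ern1 were at -0.12 to 0.35 and none was called. Those that fell furthest were the chaperones and co-chaperones Dnajb11 (-0.38 ± 0.07, adjusted p = 6.5e-05), Dnajc3 (-0.37 ± 0.05, adjusted p = 1.9e-06) and Hsp90b1 (-0.36 ± 0.10, adjusted p = 0.0069; 0.05, just outside the threshold, without replicate 1) and the folding factor Creld2 (-0.33 ± 0.07, adjusted p = 0.00017). Between the times none of these 8 overlapped except Derl3. Being the furthest called movers of their list, they were likely to be apart, and the share among all genes was not counted.

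The ER stress element, which reads CCAAT, any 9 bases and CCACG, is bound by the factors Atf6 and Xbp1. It occurs in 0.113% of promoters by the same search and in 10 of 27 members with a promoter, of which 3 rose and 3 fell. In the whole list 13 of 33 rose and 7 fell (background 16.3% and 12.5%). A member of each kind is shown with the element in capitals: Derl3, which rose, at chr10:75893217-75893285 on the plus strand, and Dnajc3, which fell, at chr14:118937802-118937870 on the plus strand.
Derl3: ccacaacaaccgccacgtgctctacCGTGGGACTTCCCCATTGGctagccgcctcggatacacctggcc
Dnajc3: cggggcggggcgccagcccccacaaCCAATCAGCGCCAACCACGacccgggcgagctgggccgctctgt

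Of 30 tested members of the MYC and ribosome biogenesis list 18 fell and 1 rose (background 12.5% and 16.3%), with a median of -0.22. With only the arrays compared in the fit 11 fell. The list's mean level was 11.97, 12.17, 12.11 and 12.11 at 24 h and 11.73, 11.80, 11.84 and 11.92 at 48 h, without overlap. In vehicle cells 27 fell and none rose (background 19.1% and 24.7%), with a median of -0.49. The difference was called and above 0 for 8 members (background 2.99%), for 1 without the block that pairs the days and for none with array medians aligned. The largest falls were those of Rrp12, a ribosome export factor (-0.80 ± 0.17, adjusted p = 0.00043), Polr1b, a subunit of RNA polymerase I (-0.72 ± 0.10, adjusted p = 1.1e-06), Rrs1 (-0.66 ± 0.17, adjusted p = 0.0026) and Utp20 (-0.56 ± 0.11, adjusted p = 0.00014), which process ribosomal RNA. Nop14, of the small subunit processome, rose by 0.35 ± 0.07 (adjusted p = 0.00011). Myc itself was at 12.86, 12.97, 12.97 and 13.08 and then at 13.02, 12.89, 12.85 and 12.97, a change of -0.04 ± 0.08 (adjusted p = 0.76).

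Among 35 tested G1/S and replication genes there were 11 falls and 1 rise (background 12.5% and 16.3%), with a median of -0.16. In vehicle cells 24 fell and 2 rose (background 19.1% and 24.7%). In TCDD cells 6 fell with array medians aligned. Ccne2, the cyclin E that opens S phase, was at 11, 10.63, 10.37 and 10.51 and then at 10.31, 9.77, 9.38 and 9.88, a fall of 0.79 ± 0.17 (adjusted p = 0.00037) without overlap. Uhrf1, which keeps DNA methylation through replication, fell by 0.59 ± 0.13 (adjusted p = 0.0004), and Fen1, the flap nuclease, by 0.57 ± 0.08 (adjusted p = 1.5e-06). Tyms, the thymidylate synthase, fell by 0.74 ± 0.18 (adjusted p = 0.002), but changed by -0.11 with array medians aligned, by -0.11 with a pseudocount of 1, by -0.03 with the values as deposited and by -0.10 in its other probe set, none of them called. Pold1, a DNA polymerase subunit, rose by 0.58 ± 0.09 (adjusted p = 7.4e-06).

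Genes of G2/M and mitosis had 9 rises and 2 falls among 34 tested members (background 16.3% and 12.5%), with a median of 0.04. The rises numbered 1 with array medians aligned, where the median was -0.038, 4 with the mean of probe sets, 5 without the block that pairs the days and 5 with only the arrays compared. Ndc80, of the kinetochore, rose by 0.50 ± 0.10 (adjusted p = 0.00036), Hmmr, of the spindle, by 0.48 ± 0.06 (adjusted p = 2.2e-07), and Mki67, the proliferation marker Ki-67, by 0.42 ± 0.10 (adjusted p = 0.00093). Birc5, or survivin, fell by 0.31 ± 0.06 (adjusted p = 0.00033) and Nek2, a centrosome kinase, by 0.28 ± 0.07 (adjusted p = 0.0016; 0.07 without replicate 3). The 24 and 48 h arrays of these 5 genes did not overlap. These too were picked for large called changes, and the share among all genes was not counted. The change of Hmmr in its 3 other probe sets was -0.03 to 0.35 and was not called.

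Of 11 tested CDK inhibitors, D cyclins and pocket proteins 6 rose and none fell (background 16.3% and 12.5%), with a median of 0.36. Rb1, the retinoblastoma protein, was at 11.27, 10.66, 10.37 and 10.64 and then at 11.85, 11.57, 11.33 and 11.32, without overlap. It rose by 0.78 ± 0.09 (adjusted p = 1.1e-07), and by 1.28 in vehicle cells. The difference of -0.50 ± 0.13 (adjusted p = 0.017) had adjusted p = 0.19 and 0.077 without replicates 1 and 2, 0.55 without the block that pairs the days and 0.62 with array medians aligned. Ccng2, an atypical cyclin of resting cells, rose by 0.64 ± 0.17 (adjusted p = 0.0035), and Cdkn2d by 0.47 ± 0.11 (adjusted p = 0.00082) and Cdkn1b by 0.42 ± 0.11 (adjusted p = 0.0027; 0.056 without replicate 2), which encode the inhibitors p19 and p27. Cdkn1a, which encodes p21, was at 12.28, 11.65, 11.07 and 10.93 and then at 12.29, 11.96, 11.63 and 11.40, a change of 0.34 ± 0.21 that was not called (adjusted p = 0.24). Its other probe set rose by 0.57 and was called (limma with all probe sets tested, adjusted p = 0.032).

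Targets of p53 rose in 9 of 21 tested members and fell in none (background 16.3% and 12.5%), with a median of 0.34. In vehicle cells 12 rose (background 24.7%), with a median of 0.72. Zmat3, an RNA-binding protein, was at 10.17, 9.69, 9.29 and 9.67 and then at 11.05, 10.69, 10.89 and 10.49, a rise of 1.08 ± 0.13 (2.11-fold, adjusted p = 9.4e-08) without overlap. Gadd45a, a growth arrest gene, rose by 1.04 ± 0.27 (adjusted p = 0.0036), the death receptor Fas by 0.93 ± 0.28 (adjusted p = 0.01) and Rrm2b, which supplies nucleotides for repair, by 0.89 ± 0.10 (adjusted p = 8.2e-08). Fas was at 10.00, 8.28, 8.66 and 8.41 and then at 10.52, 9.88, 8.90 and 9.79, so replicate 1 at 24 h exceeded all but 1 of the 48 h arrays. Its call was lost without replicate 2 or 4 (adjusted p = 0.14 and 0.057) and without the 24 h array of replicate 2 (0.051). The list's mean level at 24 h was 10.02 in replicate 1 and 9.51 to 9.59 in the others.

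The BCL2 family, which sets the threshold of mitochondrial death, had 4 rises and 3 falls among 14 tested members (background 16.3% and 12.5%). Bcl2, the survival gene, was at 10.14, 9.33, 9.44 and 9.21 and then at 10.89, 10.79, 10.82 and 10.48. It rose by 1.22 ± 0.15 (2.32-fold, adjusted p = 3.1e-07); 2 of its 4 other probe sets rose by 0.88 and 1.08, and 2 were at 0.08 and 0.14 and not called. The death-promoting genes Bbc3 and Pmaip1, also p53 targets, rose by 0.81 ± 0.18 (adjusted p = 0.00082) and 0.80 ± 0.11 (adjusted p = 2e-06). The death-promoting gene Bcl2l11, or Bim, fell by 0.99 ± 0.16 (1.99-fold, adjusted p = 1.8e-05), and the pore former Bak1 by 0.61 ± 0.14 (adjusted p = 0.00092).

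MHC class II presentation genes rose in 8 of 12 tested members and fell in 1 (background 16.3% and 12.5%), with a median of 0.32. Without replicate 2 the rises numbered 3, and 5 with array medians aligned, without the block that pairs the days or with only the arrays compared. In vehicle cells 10 rose and 1 fell (background 24.7% and 19.1%), also with a median of 0.32. The list's mean level went from 11.32 to 11.67 in TCDD cells and from 11.24 to 11.81 in vehicle cells. The difference was below 0 for 9 of the 12 members and called for 2 (background 3.7%). It was called for none without the block, with array medians aligned or without replicate 1, 2 or 3, among other settings. H2-Ob, a chain of the peptide-editing modulator, was at 8.65, 7.94, 8.29 and 8.01 and then at 9.35, 9.11, 8.96 and 8.74, a rise of 0.82 ± 0.17 (adjusted p = 0.00031) without overlap. Lgmn, a lysosomal protease, rose by 0.64 ± 0.09 (adjusted p = 7.2e-07), the class II transactivator Ciita by 0.56 ± 0.15 (adjusted p = 0.0041; 0.052 without replicate 2) and H2-Eb1, a class II beta chain, by 0.53 ± 0.08 (adjusted p = 2.6e-06). Ifi30, a lysosomal reductase, fell by 0.18 ± 0.06 (adjusted p = 0.016), a call lost without replicate 2, 3 or 4 (adjusted p = 0.057, 0.078 and 0.19) and without the 24 or the 48 h arrays of replicates 3 and 4 (0.052 to 0.072).

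**Figure D4:**
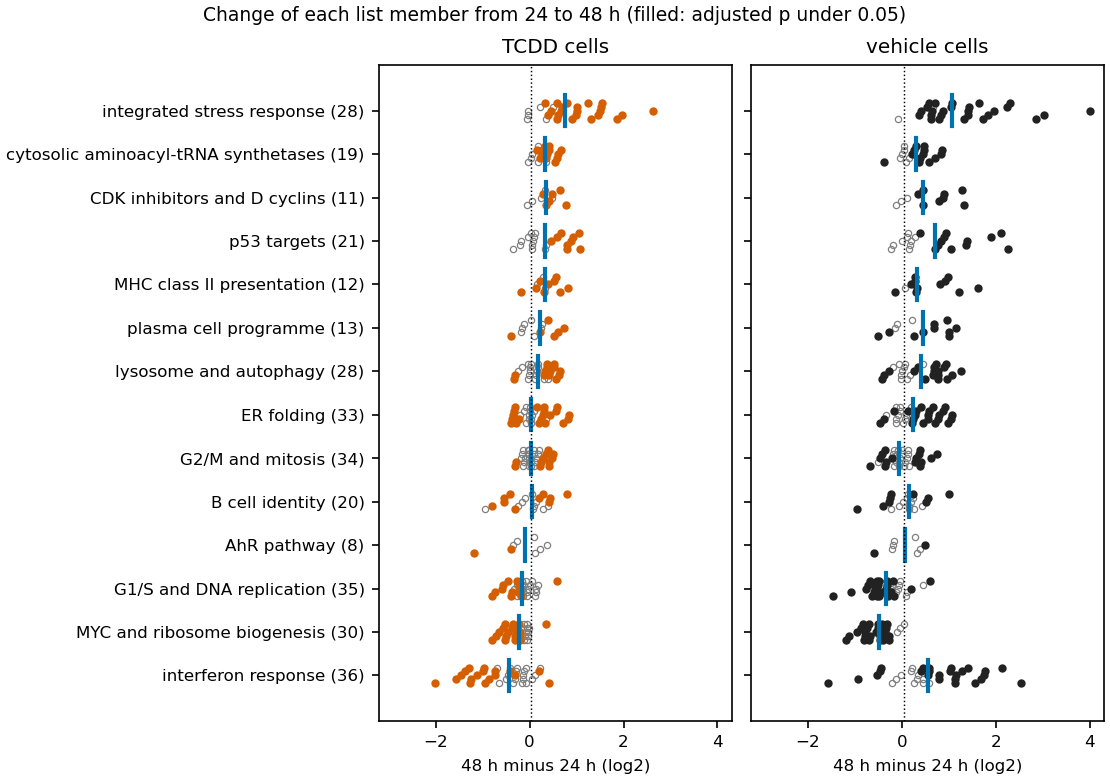
Change from 24 to 48 h (horizontal axis, log2) of each tested member of 14 gene lists in TCDD cells (left) and vehicle cells (right), filled where the adjusted p was under 0.05, with a blue bar at the list's median and a dotted line at the median of all genes. The interferon list has its median at -0.44 in TCDD cells and 0.56 in vehicle cells, while the stress response list is above 0 in both.

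The list of NF-kB targets and inflammatory genes had 10 rises and 4 falls among 31 tested members (background 16.3% and 12.5%), with a median of 0.07. There were 7 and 2 with array medians aligned, and without 4 arrays of other groups that stood apart 10 and 7. Il6, the cytokine that supports plasma cells, was at 10.10, 8.70, 8.82 and 8.31 and then at 10.83, 10.51, 9.62 and 10.02, higher in each replicate with overlapping ranges. It rose by 1.26 ± 0.23 (2.40-fold, adjusted p = 6.3e-05), and by 1.75 in vehicle cells. The chemokine Ccl5 rose by 1.56 ± 0.36 (adjusted p = 0.001), the inhibitor Nfkbie by 1.09 ± 0.11 (adjusted p = 7e-09) and the NF-kB subunit Relb by 0.78 ± 0.17 (adjusted p = 0.00065). Myd88, the adaptor of Toll-like receptors, fell by 0.73 ± 0.09 (adjusted p = 9.6e-08).

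Of 29 tested cytokines and receptors 8 rose and 2 fell (background 16.3% and 12.5%), with a median of 0.20. The rises numbered 3 without replicate 2, and 5 without its 48 h array, without the block that pairs the days or with the mean of probe sets. Il13, a cytokine better known from helper T cells, was at 5.59, 5.70, 5.55 and 5.83 and then at 7.26, 7.78, 7.82 and 7.60. It rose by 1.95 ± 0.47 (3.86-fold, adjusted p = 0.0015) without overlap, while vehicle cells changed by less than 0.01. All its 24 h arrays were below 6.21, the level that a gene had to pass to be tested, so the fold is uncertain. The difference of 1.95 ± 0.66 was not called (adjusted p = 0.07). The neighbouring cytokine gene Il4 rose by 1.15 ± 0.25 (adjusted p = 0.00058). Il9r rose by 1.43 ± 0.43 (adjusted p = 0.011; 0.094 and 0.084 without replicates 2 and 4), and Ifnar2, a chain of the type I interferon receptor, by 1.07 ± 0.09 (adjusted p = 1.7e-10), while its 2 other probe sets were at -0.53 (adjusted p = 0.05, just inside the threshold) and -0.25 (not called). Socs3, a brake on cytokine signalling, fell by 0.83 ± 0.24 (adjusted p = 0.0073; 0.052 and 0.086 without replicates 2 and 3) and Il2rb, an interleukin-2 receptor chain, by 0.64 ± 0.10 (adjusted p = 1.1e-05).

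In the TNF family 3 of 15 tested members rose and 2 fell, near the rates of all genes (16.3% and 12.5%). Cd70, a ligand that B cells show to T cells, was at 13.23, 13.05, 13.17 and 12.79 and then at 13.95, 13.97, 13.99 and 14.03, a rise of 0.92 ± 0.11 (adjusted p = 8e-08) without overlap. Tnfsf9, the ligand of 4-1BB, rose by 0.64 ± 0.12 (adjusted p = 8.5e-05) and by 1.54 in vehicle cells. Its receptor Tnfrsf9 fell by 1.10 ± 0.29 (adjusted p = 0.0038), with adjusted p = 0.051 without replicate 3 and 0.052 without its 48 h array. Tnfsf13b, the B cell survival factor BAFF, fell by 0.88 ± 0.25 (adjusted p = 0.0066; 0.073 without replicate 2) and by 2.16 in vehicle cells. That difference of 1.28 ± 0.35 (adjusted p = 0.021) was lost without replicate 1, 2 or 3 (adjusted p = 0.21, 0.077 and 0.16) and without the 48 h array of replicate 1 (0.055). Without the block that pairs the days it was at 0.057, with array medians aligned at 0.11.

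The remaining large rises were of genes with varied roles. Reep6, an ER-shaping protein, was at 8.00, 6.99, 7.22 and 6.77 and then at 8.89, 9.50, 10.01 and 10.03, a rise of 2.37 ± 0.33 (5.15-fold, adjusted p = 1.2e-06) without overlap. Pla2g2e, a secreted phospholipase, rose by 2.16 ± 0.45 (adjusted p = 0.00033), the matrix protein gene Matn1 by 2.12 ± 0.32 (adjusted p = 4.9e-06), and Tbc1d2, a regulator of vesicle GTPases, by 2.11 ± 0.28 (adjusted p = 4.8e-07). Fut1, a fucosyltransferase, rose by 2.02 ± 0.28 (adjusted p = 1.3e-06), Adssl1, of AMP synthesis, by 1.95 ± 0.22 (adjusted p = 4.7e-08), Oit3 by 1.89 ± 0.41 (adjusted p = 0.0006) and P2rx3, an ATP-gated channel, by 1.74 ± 0.25 (adjusted p = 2.6e-06). Pla2g2e, Tbc1d2, Fut1 and Oit3 were near the lower end of the scale at 24 h, at 4.83 ± 0.50, 4.85 ± 0.15, 5.63 ± 0.97 and 5.08 ± 0.65 (SD, n = 4), where 4 is the lowest value possible. All 8 rose in vehicle cells too, by 1.71 to 2.94. The difference was called for P2rx3 alone (-1.20, adjusted p = 0.037), and not without any 1 replicate (adjusted p = 0.093 to 0.16), without the 24 h array of replicate 1 (0.096) or without the 48 h arrays of replicates 1, 3 and 4 (0.051 to 0.088). Without the block that pairs the days it was at 0.23, and with array medians aligned at 0.15.

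Some genes moved in vehicle cells and moved less, or were not called, in TCDD cells. The 8 with the smallest p of the difference were Fbxl20, Ipcef1, Gabrr1, Capg, Acod1, Gtpbp2, Casp4 and Fcgr4. Acod1, which makes the antimicrobial metabolite itaconate, was at 9.31, 9.06, 9.55 and 9.42 and then at 9.60, 9.66, 9.18 and 9.52 in TCDD cells, a change of 0.15 ± 0.30 (adjusted p = 0.76). In vehicle cells it was at 6.55, 6.06, 6.11 and 6.98 and then at 9.63, 10.02, 10.02 and 10.24, a rise of 3.56 ± 0.30, and the difference was -3.40 ± 0.43 (adjusted p = 8.8e-06). The vehicle arrays were thus far below the TCDD arrays at 24 h and overlapped with them at 48 h.

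Fcgr4, an Fc receptor, changed by 0.08 ± 0.10 in TCDD cells (adjusted p = 0.58) and by 1.14 in vehicle cells, and Ipcef1, a binding partner of cytohesins, by -0.23 ± 0.10 (adjusted p = 0.08; 0.032 without the 24 h array of replicate 4 and 0.033 without the 48 h array of replicate 3) and -1.48. Gabrr1, a GABA receptor subunit, fell by 0.57 ± 0.09 (adjusted p = 2e-05), against 1.76 in vehicle cells. Fbxl20, of a ubiquitin ligase, rose by 0.62 ± 0.07, Gtpbp2, of ribosome rescue, by 0.55 ± 0.10, and the inflammatory caspase Casp4 by 0.58 ± 0.08, where vehicle cells rose by 1.61, 1.71 and 1.5. The actin-capping gene Capg rose by 0.26 ± 0.08 (adjusted p = 0.014) against 1.20, a call lost without replicate 1 or 2 (adjusted p = 0.064 and 0.13) and without the 24 h array of replicate 2 or the 48 h arrays of replicates 1 and 2 (0.052 to 0.084), and its other probe set was at -0.72 and not called. The adjusted p of the difference was 1.3e-05 for Fcgr4, 1.1e-06 for Ipcef1, 1.2e-06 for Gabrr1, 6.2e-07 for Fbxl20, 8.8e-06 for Gtpbp2, 9.2e-06 for Casp4 and 6.2e-06 for Capg.

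Some calls of a change in TCDD cells depended on the setting. Under aligned array medians the adjusted p was 0.053 to 0.099 for Irf1, Nqo1, Ighm, Creld2, Ndc80, Nek2 and Cdkn1b, 0.11 to 0.25 for Ifi30, Hsp90b1, Mki67, Jchain and Nop14, and 0.50 to 0.77 for Capg, Cd79b and Bst2, none of them then called. Without the block that pairs the days Irf1, Socs3 and Capg were at 0.051 to 0.057 and not called, as were Fas (0.10), Bst2 (0.14), Cdkn1b (0.16), Ifi30 (0.24) and Nqo1 (0.30). With only the arrays compared in the fit the calls of Birc5, Tnfrsf9, Fas, Syk, Cd79b, Capg, Nek2, Bst2 and Ifi30 were lost (0.0503 to 0.18). When the probe sets of each gene were averaged, those of Bst2, Ciita, Tnfrsf9, Edem2, Cdkn1b, Ern1, Hmmr, Cars, Ighm, Ifnar2, Syk and Fkbp11 were lost (0.055 to 0.96). The fall of Tnfsf13b had adjusted p = 0.081 with a pseudocount of 1. Nqo1 and Bst2 were not called with the values as deposited (0.16 and 0.12) or with a random block (0.077 and 0.054).

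The 36 h arrays divide the interval into 2 steps of 12 h, which share those arrays. From 24 to 36 h 354 genes changed (2.96%), 247 upwards (2.07%) and 107 downwards (0.895%). From 36 to 48 h 1445 changed (12.1%), 775 upwards (6.48%) and 670 downwards (5.6%). Both steps called 133 genes, 2 of them in opposite directions, and 1910 of the genes called from 24 to 48 h were called in neither step. Without the block and its pairing the counts were 101 and 607. With array medians aligned they were 52 and 136, with 49 upwards in each, and in fits of only the arrays compared they were 0 and 0, while 2183 and 3283 genes had an unadjusted limma p under 0.05. Leaving out 1 day gave 83 to 222 genes in the first step and 563 to 955 in the second, the fewest without replicate 2 in both. Leaving out the 24 h TCDD array of replicate 2 or of replicate 4 gave 197 and 169 in the first step, and leaving out the 48 h TCDD array of replicate 3 gave 921 in the second.

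In the stress response list 18 of 28 members rose in the first step, against 3 in the second (background 2.07% and 6.48%). Its median change was 0.56 in the first step and 0.24 in the second. Cth rose by 1.48 ± 0.22 in the first step (adjusted p = 0.00031) and changed by 0.38 ± 0.22 in the second (adjusted p = 0.29). Ddit3 rose in both, by 0.95 ± 0.21 (adjusted p = 0.0073) and 1.02 ± 0.21 (adjusted p = 0.0013). In the ribosome list 13 of 30 members fell in the second step, against none of 30 in the first (background 5.6% and 0.895%). Its median change was -0.05 in the first step and -0.22 in the second. Of MHC class II genes 7 of 12 rose in the second step and none in the first (background 6.48% and 2.07%), with medians of 0.34 and 0.01. No call in the first step is near its low background rate. Of the 35 G1/S genes 7 fell and 1 rose in the second step (background 5.6% and 6.48%) and none was called in the first. Of the 11 genes of the CDK inhibitor list 5 rose in the second and none in the first (background 6.48% and 2.07%). The 36 interferon genes had 2 falls in the first step and 4 in the second (background 0.895% and 5.6%). Ifit3 fell in both, by 0.97 ± 0.25 (adjusted p = 0.026) and 1.05 ± 0.25 (adjusted p = 0.0053). Cxcr3, a chemokine receptor among the largest falls of the first step, fell by 0.90 ± 0.14 (adjusted p = 0.00039). Cyp1a1 changed by -0.65 ± 0.20 and -0.53 ± 0.20, neither of which was called (adjusted p = 0.063 and 0.075). Csf2, a myeloid growth factor, rose by 1.36 ± 0.35 in the first step (adjusted p = 0.023) and fell by 1.33 ± 0.35 in the second (adjusted p = 0.01), so that its change over the whole interval was 0.03. Its highest array was at 5.47 at 24 h and at 6.10 at 48 h. Both are below 6.21, the level that a gene had to pass to be tested, so the sizes of these changes are uncertain. No test compared the steps with each other, and the list counts per step were made in the main fit alone.

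**Figure D5:**
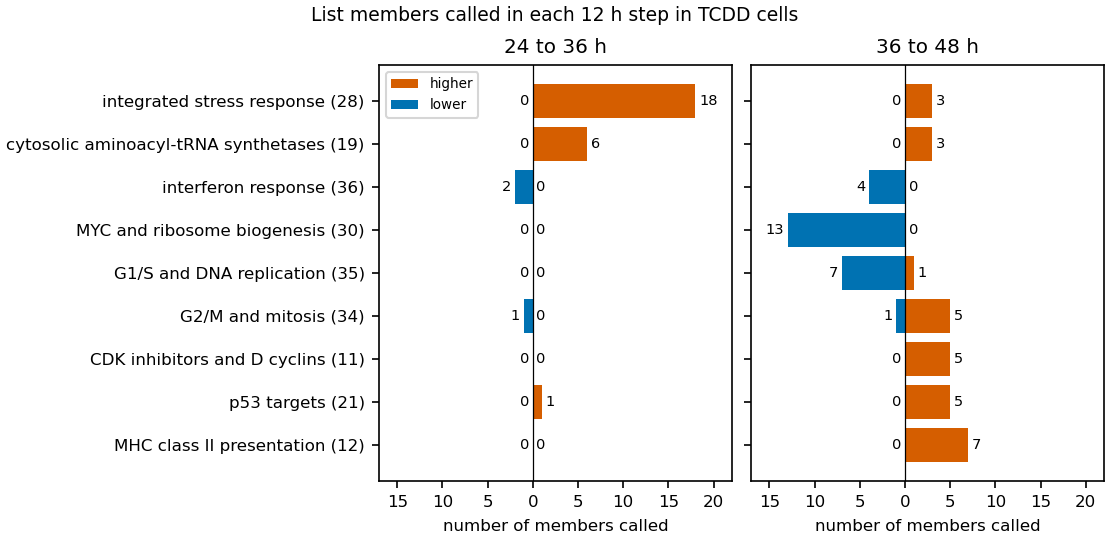
Number of members of 9 gene lists called higher (right of 0) or lower (left of 0) from 24 to 36 h and from 36 to 48 h in TCDD cells, with the tested members of each list in brackets. The stress response list has 18 rises in the first step and 3 in the second, and the ribosome list 0 and then 13 falls. Of all genes 2.07% rose and 0.895% fell in the first step, and 6.48% rose and 5.6% fell in the second.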

How the data were processed

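The data are 44 Affymetrix whole-genome mouse arrays of CH12.LX cells, of which the 8 TCDD arrays at 24 and 48 h are compared here and the rest give the comparison groups and the common estimate of spread. Values are signal intensities per probe set as deposited by the authors, for which the submitters' processing notes name GCOS 1.0; in these files every array is scaled to the same trimmed mean of 500. Any other step was not given in the sources used here. The arrays' number limits the precision.

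Signals were quantile-normalized and taken as log2(signal + 16). Of 45101 probe sets 64 were controls, 34945 had 1 gene symbol, 932 several and 9160 none; only those with 1 symbol were used, with the brightest per gene. Of 18193 genes, the 11955 whose highest group mean passed 6.21, the median of all values, were tested with limma 3.58.1 (R 4.3.3) on all 44 arrays, with the replicate number as a block, and p-values were Benjamini-Hochberg adjusted (threshold 0.05). Python 3.11.15, pandas 2.3.3, numpy 2.4.6 and matplotlib 3.10.9 made the summaries.

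The labels give each replicate number its own day. The arrays were paired by these labels. The deviations of same-numbered 24 and 48 h TCDD arrays from their group means correlated at 0.338, 0.130, 0.137 and 0.207. Between differing numbers the median was -0.119, with the highest at 0.171 and 0.133. Deviations cancel out within a group, so the values of differing numbers are no independent contrast and cannot decide the pairing. In simulated data of 11955 genes with normal noise, 50 genes were changed at each of 1.5-, 2-, 3- and 4-fold. For TCDD 48 h against 24 h, 62% of those changed 1.5-fold were recovered and 88% at 2-fold. For the difference from vehicle it was 42% and 62%. Far fewer genes changed there than the 28.8% and 6.69% called in the data. Because the adjusted threshold depends on that share, these rates do not give the sensitivity of the real comparisons.

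Named genes are a fixed set, the 12 largest rises and falls that ran one way in all 4 pairs, up to 4 called members per direction and 2 uncalled members of each list, the 8 smallest p-values of the difference, and the 6 largest changes of each step and direction. Genes outside this rule are identified as such or complete a list. Members and lists were chosen with earlier results of these data known. Alternatives covered the block, arrays, normalization, pseudocount, filter, probe sets, moderation and leaving out days or arrays.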

Additional observations from a re-analysis of the deposited data

Results flagged for a closer look

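In 30 of 147 genes looked at, the change from 24 to 48 h differed between TCDD and vehicle cells (limma interaction term, adjusted p under 0.05). Of all genes tested 6.69% did so. The 147 were largely picked by their changes, 8 of them by this same test, so the count is no evidence of its own. The values below are the TCDD change minus the vehicle change on the log2 scale. Among integrated stress response genes the difference was below 0 for Ddit3 (-1.05) and Fgf21 (-1.34). Among interferon-stimulated genes the difference was below 0 for Ifit1 (-3.05), Oas3 (-3.02), Oasl2 (-2.72), Ifit3 (-2.47), Usp18 (-2.44), Mx1 (-2.35) and Slfn8 (-1.23). Among genes that TCDD raises the difference was below 0 for Cyp1a1 (-1.5) and Plet1 (-1.27). It was also below 0 for P2rx3 (-1.20), P2ry13 (-0.78), Xbp1 (-0.36), Edem2 (-0.45), H2-Ob (-0.80), Rb1 (-0.50), Pmaip1 (-0.57) and Fbxl20 (-0.99). The same held for Capg (-0.94), Acod1 (-3.40), Gtpbp2 (-1.17), Casp4 (-0.92), Fcgr4 (-1.05), Nbr1 (-0.60), Tap1 (-0.40) and Tnfsf9 (-0.91). It was above 0 for Tnfsf13b (1.28), Ipcef1 (1.25) and Gabrr1 (1.19). The calls of Edem2, H2-Ob and Pmaip1 were lost when days were left out: adjusted p was 0.092 and 0.12 for Edem2 without replicates 2 and 3, 0.22, 0.15 and 0.13 for H2-Ob without replicates 1, 2 and 3, and 0.18, 0.15 and 0.092 for Pmaip1 without replicates 1, 2 and 4. Tap1 was not called without any 1 of the 4 replicates (adjusted p = 0.063 to 0.24), nor without the 24 h array of replicate 1, 2 or 4 or the 48 h array of replicate 1 or 2 (0.051 to 0.066). With array medians aligned the difference was not called for Plet1, Capg, Tnfsf9, Fgf21, Tnfsf13b, Ddit3, P2rx3, P2ry13, H2-Ob, Edem2, Nbr1, Pmaip1, Tap1, Rb1 and Xbp1 (adjusted p = 0.055 to 0.65). Without the block that pairs the days it was not called for Tnfsf13b, Ddit3, P2ry13, Fgf21, Plet1, Nbr1, Edem2, P2rx3, Tap1, H2-Ob, Pmaip1 and Rb1 (0.057 to 0.55). With the mean of probe sets it was not called for Nbr1, Ipcef1, Ddit3, Rb1, Edem2 and Tap1 (0.15 to 0.88), and with only the arrays compared for Pmaip1, P2ry13, Ddit3 and Tnfsf13b (0.067 to 0.14). A pseudocount of 1 ended the call for P2ry13, H2-Ob, P2rx3, Fgf21 and Plet1 (0.052 to 0.14).

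In 16 of 294 gene and group combinations 1 of the 4 TCDD arrays lay far from the other arrays of its group, by Dixon's test; chance alone does so in about 1 of 20 groups. The values are levels, log2(signal + 16). At 24 h the array lay above the others for P2rx3 in replicate 1 (8.09), Gtpbp2 in replicate 1 (9.41), Csf2 in replicate 1 (5.47), Vegfa in replicate 1 (7.55) and Slc7a1 in replicate 3 (12.60). At 48 h the array lay below the others for Phlda1 in replicate 3 (7.04), Tiparp in replicate 4 (12.71), Hsp90b1 in replicate 3 (13.94), Ndc80 in replicate 4 (9.81) and Gadd45a in replicate 3 (8.11). At 24 h the array lay below the others for Ahrr in replicate 4 (7.83), Btk in replicate 1 (10.49), Dnajc3 in replicate 3 (11.33) and Uhrf1 in replicate 1 (12.24). At 48 h the array lay above the others for Csf2 in replicate 1 (6.10) and Psmd1 in replicate 1 (12.27).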

How the results depend on the processing

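The count of genes called between TCDD 48 h and 24 h (3443) was 1770 with array medians aligned and 5705 of 25200 probe sets when all were tested, 49.1% of them upwards against 56.5%. Leaving out 1 day gave 2399 to 3078, and leaving out 1 TCDD array 2855 to 3213. Without the replicate block, which drops the pairing, 2431 were called. The vehicle count (5232) was 9474 with all probe sets and 4243 to 4922 without 1 day. The first step (354) gave 52 with medians aligned (49 upwards), 101 without the block, 0 with only the arrays compared (2183 at an unadjusted limma p under 0.05), 732 without 4 arrays standing apart (untreated replicates 3 and 4, vehicle 12 h replicate 4 and vehicle 48 h replicate 2), 83 to 222 without 1 day and 169 to 368 without 1 TCDD array. The second step (1445) gave 136 (36.0% upwards), 607, 0 (3283 unadjusted), 2207, 563 to 955 and 921 to 1417 in the same order. The difference from vehicle (800) gave 93 with medians aligned (21.5% above 0), 266 without the block, 438 with only the arrays compared (30.1% above 0), 312 to 466 without 1 day and 572 to 762 without 1 TCDD array. It gave 1075 without the 4 arrays standing apart (49.3% above 0). Using the values as deposited moved the median change of all genes in vehicle cells to 0.13. Causes were not tested.

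Of the gene results, 3950 values under alternatives kept direction and side of the threshold, 230 fell short of it, 19 passed it and 17 changed sign; none of the 17 was called. These were Xbp1 with medians aligned (-0.033), Capg with the mean of probe sets (-0.23), Asns (0.050), Cbs (0.032) and Ppp1r15a (0.022) as deposited, and, over the values without 1 day or 1 array, Sdc1 (-0.32 to 0.17; above 0 without replicate 3 or its 48 h array), Csf2 (-0.30 to 0.17; below 0 without replicate 1, its 48 h array or the 24 h array of replicate 2 or 3), Asns (-0.18 to 0.13; above 0 without replicate 1, either array of it or the 48 h array of replicate 4) and Cbs (-0.14 to 0.083; above 0 without replicate 4 or its 48 h array). Signals near background limit the dim genes, whose changes the added 16 shrinks.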

Other observations

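Other lists were counted in the same way in TCDD cells between 24 and 48 h. Lysosome and autophagy genes rose in 11 of 28 tested members and fell in 2 (all genes: 16.3% and 12.5%), with a median change of 0.18. In vehicle cells 15 rose and 3 fell (all genes: 24.7% and 19.1%). In TCDD cells 6 rose and 1 fell with array medians aligned. Nbr1, an autophagy receptor, rose by 0.65 ± 0.08 (limma SE, adjusted p = 1e-07), Gabarapl1, which coats autophagosomes, by 0.63 ± 0.11 (adjusted p = 2.4e-05) and the lysosomal enzyme Hexa by 0.56 ± 0.11 (adjusted p = 0.00013). NRF2 and antioxidant genes fell in 8 of 21 members and rose in 2 (all genes: 12.5% and 16.3%), beside 10 and 3 in vehicle cells (all genes: 19.1% and 24.7%). The falls numbered 5 with array medians aligned and 5 without replicate 3. Pgd, of the pentose phosphate pathway, fell by 0.74 ± 0.09 (adjusted p = 2e-07) and Me1, malic enzyme, by 0.55 ± 0.12 (adjusted p = 0.00044), while Gpx4, which protects membranes from lipid peroxides, rose by 0.67 ± 0.06 (adjusted p = 2.8e-10).

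Proteasome core and cap genes fell in 11 of 27 members and rose in 1 (all genes: 12.5% and 16.3%), and in 5 with array medians aligned or with only the arrays compared. Among them were Psmc4, an ATPase of the cap, at -0.76 ± 0.19 (adjusted p = 0.0027) and Psmd1, a cap subunit, at -0.42 ± 0.06 (adjusted p = 2.3e-06). The interferon-inducible catalytic subunit Psmb9 rose by 0.51 ± 0.06 (adjusted p = 2.9e-07). It is in the list of MHC class I presentation, of which 5 of 12 members rose and 1 fell (all genes: 16.3% and 12.5%). The rises numbered 1 with array medians aligned, and 2 without the block that pairs the days, with only the arrays compared or with the mean of probe sets. The peptide transporter Tap1 rose by 0.41 ± 0.08 (adjusted p = 0.00021; 0.074 with array medians aligned and 0.86 with the mean of its probe sets). Of glycolysis and hypoxia genes 4 of 26 rose and 4 fell, near the rates of all genes (16.3% and 12.5%). Vegfa, a vessel growth factor, rose by 1.40 ± 0.33 (adjusted p = 0.0013), and the glucose transporter Slc2a1 fell by 0.58 ± 0.14 (adjusted p = 0.0013).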
